A study of Mus musculus with 18 samples.

Results

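Interferon-induced genes and interferon regulatory factors were followed in the open chromatin of the mouse liver. The members were the protein-coding autosomal genes whose symbol begins with Gbp, Oas, Ifit, Ifi, Irf, Irgm, Iigp or Isg in the GENCODE M1 annotation of mm9, which gave 61 genes of 21418. Sites were made by merging the peak lists of all strains, and a site belonged to a member when it overlapped the gene or lay within 10 kb of it. This gave 154 member sites of 51957 merged sites, or of 41946 sites assigned in the same way to any autosomal protein-coding gene. The rule itself used only names and positions, although the families were picked with earlier results of these data known.

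The study profiled livers of male mice from 9 strains, all fed a high-fat, high-sucrose diet for 8 weeks from 8 weeks of age, which made 18 samples from 2 mice of each strain. There was no other treatment and no group on another diet. The 7 inbred strains were A/J, AKR/J, BALB/cJ, CBA/J, DBA/2J, C3H/HeJ and C57BL/6J. The other two strains, BXH2/TyJ and BXH19/TyJ, are recombinant inbreds whose genomes mix segments of C57BL/6J and C3H/HeJ. FAIRE-seq recovers DNA free of nucleosomes from formaldehyde-fixed tissue, and the authors deposited 1 list of reproducible peaks per strain that combines its mice. Values per strain therefore have no replicate error and no test between strains could be made. Shares are given with exact Clopper-Pearson 95% intervals, which cover counting error only and treat neighbouring sites as independent. Each list held 26769 to 30613 peaks, and the read depth behind a peak was not used here. A peak's strength is given as the percentile of its signal within its own list, where 100 is the strongest peak. The absence of a peak does not show closed chromatin, since the caller has a threshold.

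Interferons are secreted after infection and act through cell-surface receptors, JAK kinases and STAT proteins. Type I interferons bring STAT proteins and Irf9 together on the interferon-stimulated response element (ISRE), and interferon gamma drives a STAT dimer to the gamma-activated site (GAS). Irf proteins bind the ISRE and related elements, while the Gbp, Irgm and Iigp GTPases, the Oas and Ifit proteins and Isg15 carry out much of the defence inside the cell. In liver, hepatocytes and the resident macrophages (Kupffer cells) both respond to interferon, and whole tissue does not tell their chromatin apart.

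The DNA before the members' first bases was read first, because it shows which of them carry the letters that these factors bind. The ISRE core was searched as GAAA, any 2 bases and GAAA, and the GAS core as TTC, any 3 bases and GAA, on both strands, in the 250 bases before the annotated 5′ end of each gene. Shown here is a selection of the members with a match, picked to cover starts called in all lists, in some and in none, with Irf1 and Irf8 for their GAS cores. Each is printed 5′ to 3′ on the gene's strand from mm9, with matches in capitals.
Irgm2 (chr11:58028390-58028529, plus strand): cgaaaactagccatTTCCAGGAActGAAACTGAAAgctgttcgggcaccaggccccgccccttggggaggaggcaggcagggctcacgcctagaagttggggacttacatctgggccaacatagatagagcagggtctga
Oas1b (chr5:121262534-121262643, plus strand): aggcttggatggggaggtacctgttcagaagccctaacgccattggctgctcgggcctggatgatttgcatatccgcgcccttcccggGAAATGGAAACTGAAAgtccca
Oas1a (chr5:121357537-121357646, minus strand): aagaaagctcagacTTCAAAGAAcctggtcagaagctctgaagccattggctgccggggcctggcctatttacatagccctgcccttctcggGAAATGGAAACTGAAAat
Gbp7 (chr3:142193182-142193301, plus strand): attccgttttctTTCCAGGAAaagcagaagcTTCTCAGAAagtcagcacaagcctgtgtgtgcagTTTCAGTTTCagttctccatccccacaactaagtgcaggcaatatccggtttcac
Gbp3 (chr3:142222906-142223015, plus strand): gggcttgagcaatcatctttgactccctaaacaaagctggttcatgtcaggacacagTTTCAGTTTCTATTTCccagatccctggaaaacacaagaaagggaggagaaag
Ifit1 (chr19:34715251-34715360, plus strand): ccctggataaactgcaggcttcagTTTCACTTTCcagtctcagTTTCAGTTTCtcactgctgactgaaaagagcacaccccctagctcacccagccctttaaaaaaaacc
Ifit3 (chr19:34657851-34658020, plus strand): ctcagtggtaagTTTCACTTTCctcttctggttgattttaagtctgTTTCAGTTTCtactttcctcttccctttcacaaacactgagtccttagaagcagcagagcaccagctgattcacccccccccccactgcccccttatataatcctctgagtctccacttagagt
Ifi27l1 (chr12:104672311-104672420, plus strand): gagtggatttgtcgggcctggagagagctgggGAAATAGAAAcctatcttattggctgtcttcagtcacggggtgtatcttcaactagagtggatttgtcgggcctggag
Isg15 (chr4:155574928-155575037, minus strand): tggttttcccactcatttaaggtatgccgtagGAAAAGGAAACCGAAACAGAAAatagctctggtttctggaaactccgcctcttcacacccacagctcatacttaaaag
Oas2 (chr5:121199863-121199972, minus strand): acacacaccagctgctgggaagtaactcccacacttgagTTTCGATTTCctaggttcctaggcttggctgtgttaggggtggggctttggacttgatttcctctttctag
Oas3 (chr5:121227671-121227780, minus strand): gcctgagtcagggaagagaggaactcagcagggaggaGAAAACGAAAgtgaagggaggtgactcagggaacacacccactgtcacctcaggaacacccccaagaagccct
Irf1 (chr11:53583406-53583515, plus strand): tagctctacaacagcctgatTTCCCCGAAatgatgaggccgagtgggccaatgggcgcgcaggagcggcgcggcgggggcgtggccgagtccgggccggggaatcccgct
Irf8 (chr8:123260068-123260177, plus strand): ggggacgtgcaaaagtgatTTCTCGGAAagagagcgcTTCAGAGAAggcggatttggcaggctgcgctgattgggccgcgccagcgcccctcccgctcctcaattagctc

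The Isg15 window holds 3 overlapping ISRE cores, starting 78, 72 and 66 bases before the gene. In Irgm2 a GAS core starts at 126 and an ISRE core at 115 bases before the gene, with only a few bases between them. Gbp7 has an ISRE core at 55 bases and GAS cores at 108 and 89 bases before its start. Oas1a and Oas1b share a run with 2 overlapping ISRE cores close to the start, beginning 18 and 22 bases before the respective gene. The run before Oas1b is also the one counted for Oas1c, which is transcribed away from the same region, so these matches are not independent. Irf1 and Irf8 carry GAS cores and no ISRE core in this window.

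Across the members, 20 of 61 windows held an ISRE core (32.8%, 95% interval 21.3 to 46.0), against 3.31% of the windows of all autosomal protein-coding genes. The interval lay wholly above that background. By family, the match was present in 6 of 12 Oas genes, 4 of 11 Gbp genes, 3 of 12 Ifi genes, 2 of 3 Ifit genes, 2 of the 3 Irgm and Iigp genes, 1 of 6 Ifitm genes, 1 of 3 Isg genes and 1 of 9 Irf genes. It was found in 0 of the 2 Irf2bp genes, which are co-repressor genes matched by the prefix alone and are not interferon regulatory factors. GAS cores were found in 13 of 61 windows (21.3%, 11.9 to 33.7), against 6.79% of all genes, and 3 of those members were the Irf genes Irf1, Irf2 and Irf8. Within the central 300 bases of the open sites themselves, an ISRE core was present in 14 of 154 member sites (9.09%, 5.06 to 14.8; background 2.58%) and a GAS core in 20 (13.0%, 8.12 to 19.3; background 6.99%). Ifi, Irgm, Iigp and Isg genes held most of the former (4 sites of Ifi genes, 3 of Irgm and Iigp genes and 3 of Isg genes), and 10 of the latter were sites of Irf genes. Related genes share ancestry and often sequence, so matches within a family are not independent.

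**Figure D1:**
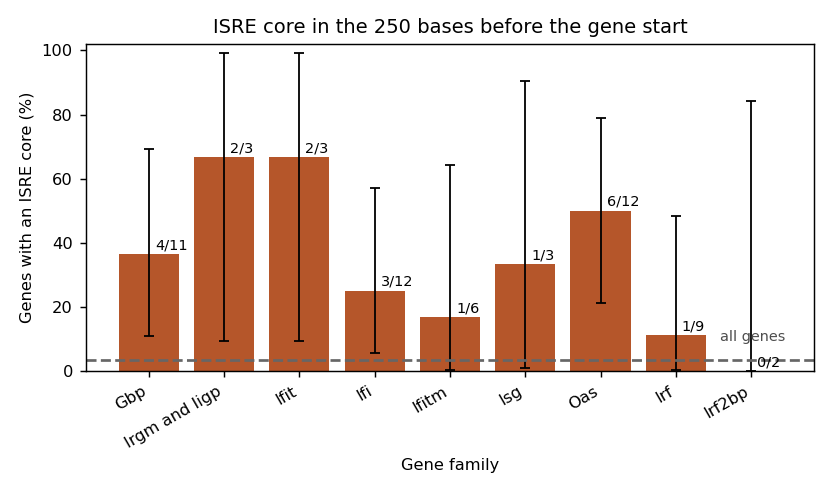
Share of genes in each family with an ISRE core in the 250 bases before the annotated 5′ end. Bars give the percentage, labels the counts, error bars exact 95% binomial intervals, and the dashed line the 3.31% of all autosomal protein-coding genes. The Oas bar stands at 6 of 12 genes and the Irf bar at 1 of 9, and the intervals of the small families are wide.

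A letter match was not accompanied by an open start in every member. Of the 20 members with an ISRE core, 5 had a site within 1 kb of an annotated start in all 9 lists, 5 in some lists and 10 in none. The 5 open in all lists were Irgm2, Oas1b, Oas1c, Ifitm2 and Irf2. Of the 41 members without the core, 18 were open in all lists and 18 in none. Over all genes with an ISRE core, 33.0% had a start site in all lists and 51.9% in none, set beside 25% and 50% of the members with the core. No match says only that these letters are missing from the window. The core was searched before the gene's 5′ end only, while a site at any annotated start counted as open. Start sites of Irgm1, Isg20, Ifi47 and Gbp10 held an ISRE core in their central 300 bases, yet these genes count here as without it.

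In total, 41 of 61 members had a site (67.2%, 54.0 to 78.7; background 72.9%), and 33 had a site at a start in at least 1 list (54.1%, 40.8 to 66.9; background 60.1%). In 23 members the start was called in all 9 lists (37.7%, 25.6 to 51.0; background 41.7%), and in 10 in some but not all (16.4%, 8.15 to 28.1; background 18.4%). Each of these intervals held its background. The counts varied by family. Irf2bp genes had a start in all lists in 2 of 2 and Irf genes in 8 of 9, while Gbp genes had none in 11. Between these, the counts were 2 of 3 for Isg genes, 2 of 3 for Irgm and Iigp genes, 4 of 12 for Ifi genes, 2 of 6 for Ifitm genes, 1 of 3 for Ifit genes and 2 of 12 for Oas genes.

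The base composition of the windows moved with these classes. The median G and C content of the 250 bases before the gene was 53.6% in the members open in all 9 lists, 47.6% in those open in some and 47.2% in those open in none. For all genes the same medians were 59.6%, 59.2% and 46.4%. Irf genes had a median of 65.2%, against 45.6% in Gbp and in Ifi genes and 49.6% in Oas genes. The part of composition in the calls was not tested.

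**Figure D2:**
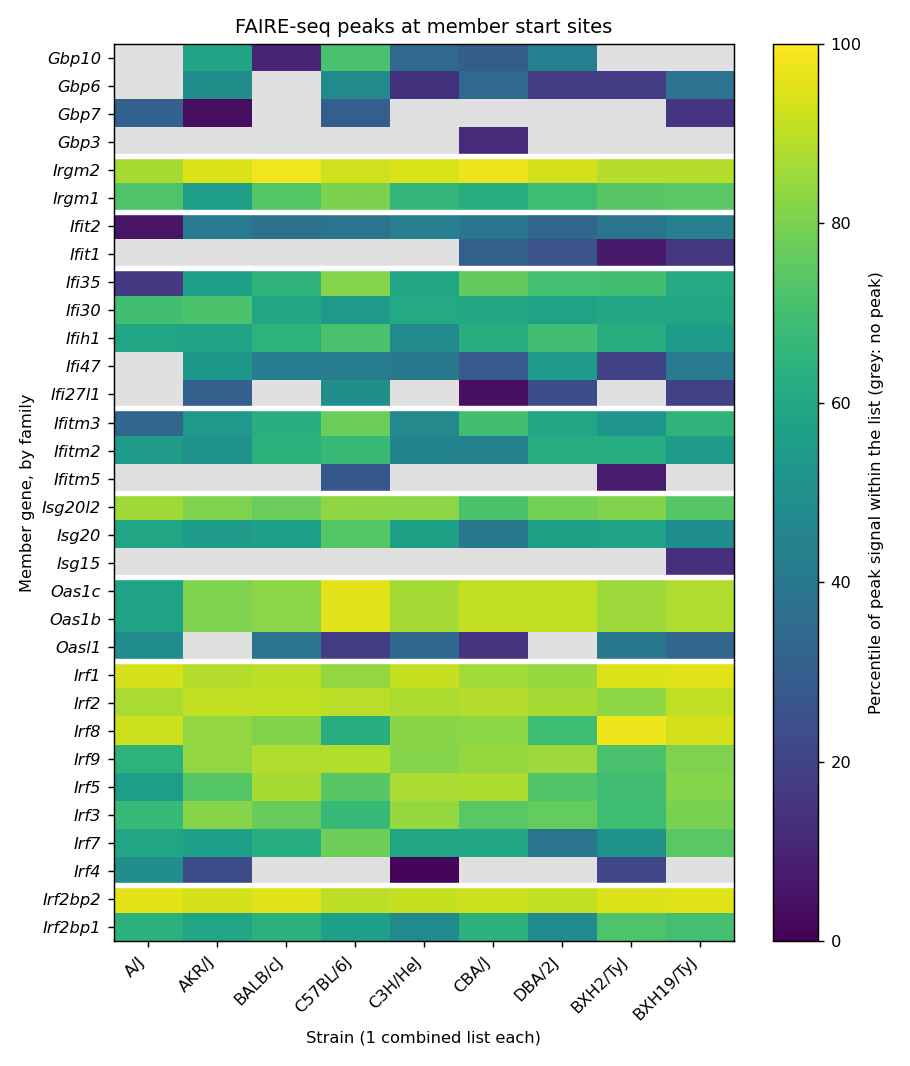
Percentile of the peak signal within each strain's list (colour) at a start site of 32 of the 33 members that had one, with strains in columns and genes grouped by family. Where a gene had several start sites, the site with the highest mean percentile is shown, and grey means no peak. The rows of Irf genes other than Irf4 are filled in all 9 lists, and the Gbp rows hold grey cells in every case.

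The member sites were called in a similar spread of lists as other sites. Of 154 sites, 50 were called in all 9 lists (32.5%, 25.2 to 40.5; background 29.1%), 68 in 2 to 8 lists (44.2%, 36.2 to 52.4; background 44.7%) and 36 in a single list (23.4%, 16.9 to 30.9; background 26.2%). Member sites were called in a mean of 5.31 lists, against 5.02 for all sites near genes. The median of their mean percentile was 32.2, against 32.0 in the background. At the sites called in all 9 lists the median percentile was 66.9 for members and 76.5 in the background. Counted as pairs of a site and a gene, 25 of 51 at starts were called in all lists (49.0%; all genes 55.5%), 8 of 26 upstream (30.8%; 28.2%), 16 of 56 downstream (28.6%; 32.9%), 4 of 17 in exons (23.5%; 18.4%) and 1 of 18 in introns (5.56%; 14.8%). Sites at starts had the highest share in both sets. In 43 of the 154 the nearest protein-coding start was that of another gene, so that their assignment to a member is one of position only, and 13 sites lay within reach of more than 1 member.

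**Figure D3:**
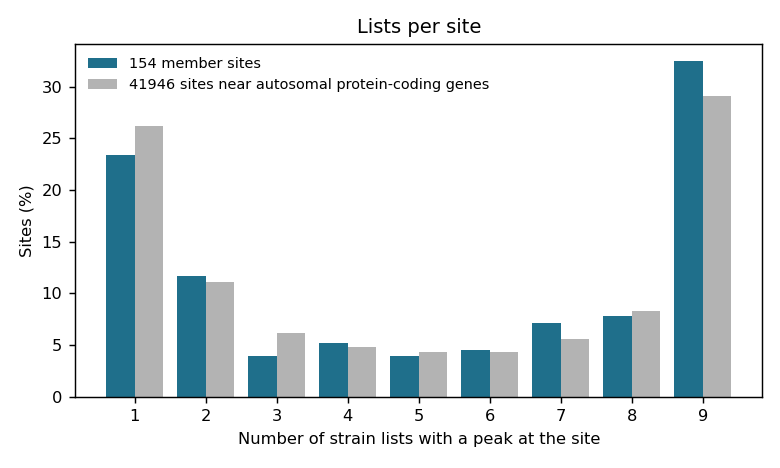
Share of sites called in 1 to 9 strain lists, for the 154 member sites and for the 41946 sites near autosomal protein-coding genes. Both sets are most frequent at the ends of the scale, with 23.4% and 26.2% in a single list and 32.5% and 29.1% in all 9.

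The A/J list stood apart. It alone held 22 of the 154 member sites (14.3%, 9.17 to 20.8), against 12.5% of all sites near genes, where the share of the other lists was at most 2.24%. Another 7 member sites were called in every list but A/J (4.55%, 1.85 to 9.14; background 4.82%). The pairs of lists with the smallest overlap at member sites all included A/J, with 45.3 to 57% of their sites shared, against 64.1 to 78.8% for the other pairs. The same was seen over all sites near genes, and it came with base composition. Member sites called in A/J alone had a mean G and C content of 61.5% ± 3.40 (SD, n = 22), those missing in A/J alone 50.3% ± 1.63 (SD, n = 7), and those in a single other list 49.6% ± 5.64 (SD, n = 14). In the background the same means were 62.2%, 49.3% and 50.2%. By the study's read counts, both A/J samples had fewer uniquely mapped reads than any other sample before filtering. After filtering, a BXH19/TyJ sample had fewer. The part of composition or of read depth in the A/J calls was not tested, and results that rest on A/J are given with the other lists beside them.

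**Figure D4:**
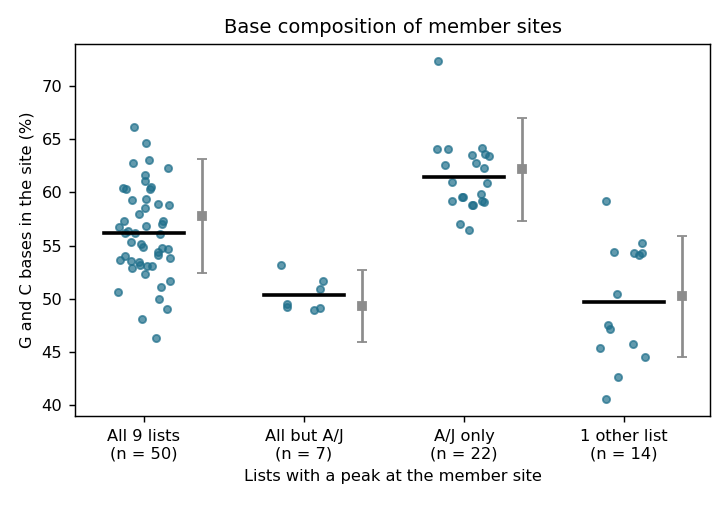
G and C content of member sites (points; black lines are means) by the lists that called them, with the mean and SD of all sites near genes as grey squares and bars. The 22 sites of A/J alone lie between 56.5% and 72.4%, and the 7 sites missing in A/J alone between 48.9% and 53.2%.

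Among the regulators, 8 of 9 Irf genes had an open start in every strain. Irf1, an early interferon-induced activator, had its start site at chr11:53582913-53584433 at percentiles of 83.7 in C57BL/6J to 95.3 in BXH19/TyJ, with a median of 90.1. Another 2 sites upstream of Irf1 were called in all 9 lists, at medians of 79.3 and 44.0. Irf2, which competes with Irf1 at the same elements, had its start site at 83.0 to 90.7 with a median of 89.0. Irf2 held 16 sites, more than any other member of its family, and 11 of them lay within introns or exons of a long gene. Another Irf2 site, 938 bases from the start, was called in A/J at 62.9 and in BXH2/TyJ at 51.0 and in no other list.

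Irf9, the DNA-binding subunit of the type I complex, had its only site at its start (chr14:56222325-56223532). It ranked at 64.6 in A/J and 71.1 in BXH2/TyJ, and at 80.7 to 88.4 in the other 7 lists. The start of Irf8, a factor of macrophages and dendritic cells that carries the GAS cores printed above, was called in all lists at chr8:123259490-123260798. Its percentile was 97.6 in BXH2/TyJ, 93.6 in BXH19/TyJ, 92.5 in A/J, 83.9 in AKR/J, 83.0 in CBA/J, 82.3 in C3H/HeJ, 81 in BALB/cJ, 69.1 in DBA/2J and 62.3 in C57BL/6J. BXH2/TyJ thus had the highest rank and C57BL/6J, a parent of that strain, the lowest, with C3H/HeJ, the other parent, at 82.3. BXH2/TyJ is known to carry a mutation in Irf8, and a link between it and the rank was not tested. The second Irf8 site, in an exon 11800 bases from the nearest start, was also highest in BXH2/TyJ at 49.5 and had no peak in AKR/J and BALB/cJ.

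Irf3 and Irf7 switch on interferon genes after a virus is sensed. The start site of Irf3 at chr7:52251867-52253646 ranked at 91.6 in C57BL/6J and at 60.4 to 73.8 in the other lists. A neighbouring site, 558 bases from the nearest Irf3 start, did not share this order, since C57BL/6J was the lowest there at 66.8 and C3H/HeJ the highest at 84.1. The start site of Irf7 lay at 38.9 in DBA/2J to 78.1 in C57BL/6J, with a median of 59.0. A second Irf7 start site was called only in A/J, at 51.6, and in BXH2/TyJ, at 10.8. Irf5, a driver of inflammatory genes in macrophages, had 5 sites near its annotated starts, of which only the one at chr6:29486693-29487622, beside a start some 10 kb into the gene, was called in all 9 lists (55.8 in A/J to 87.5 in CBA/J). The site nearest its 5′ end, which stops 8 bases short of it, was called in A/J alone at 44.5. The next, chr6:29476679-29477305, begins 54 bases beyond the 5′ end and was called in A/J at 62.7, in BXH2/TyJ at 19 and in C3H/HeJ at 7.38. Irf4, a lymphoid factor, was called at its start in A/J (49.1), AKR/J (22.9), BXH2/TyJ (21.1) and C3H/HeJ (1.49) and in 5 lists not at all.

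Sites of A/J alone were most numerous at the Irf genes, with 15 of 61 sites (24.6%, 14.5 to 37.3; background 12.5%). These were 6 at Irf3, 3 at Irf5 and 2 each at Irf1, Irf2 and Irf7. Irf2bp1 and Irf2bp2 added 4 of their 23 sites, Ifi30 and Ifi35 1 each, and Oasl1 1. No Gbp, Ifit, Ifitm, Irgm, Iigp or Isg gene had such a site, but these families held only 3 to 11 sites each. Percentiles of the sites of A/J alone were 1.79 to 44.5, so none was among the stronger peaks of the list. The A/J sites of the Irf genes had 57 to 64.2% G and C bases. Families were picked out here after the values were seen, and neighbouring A/J sites around Irf3 lie within a few kilobases of each other.

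**Figure D5:**
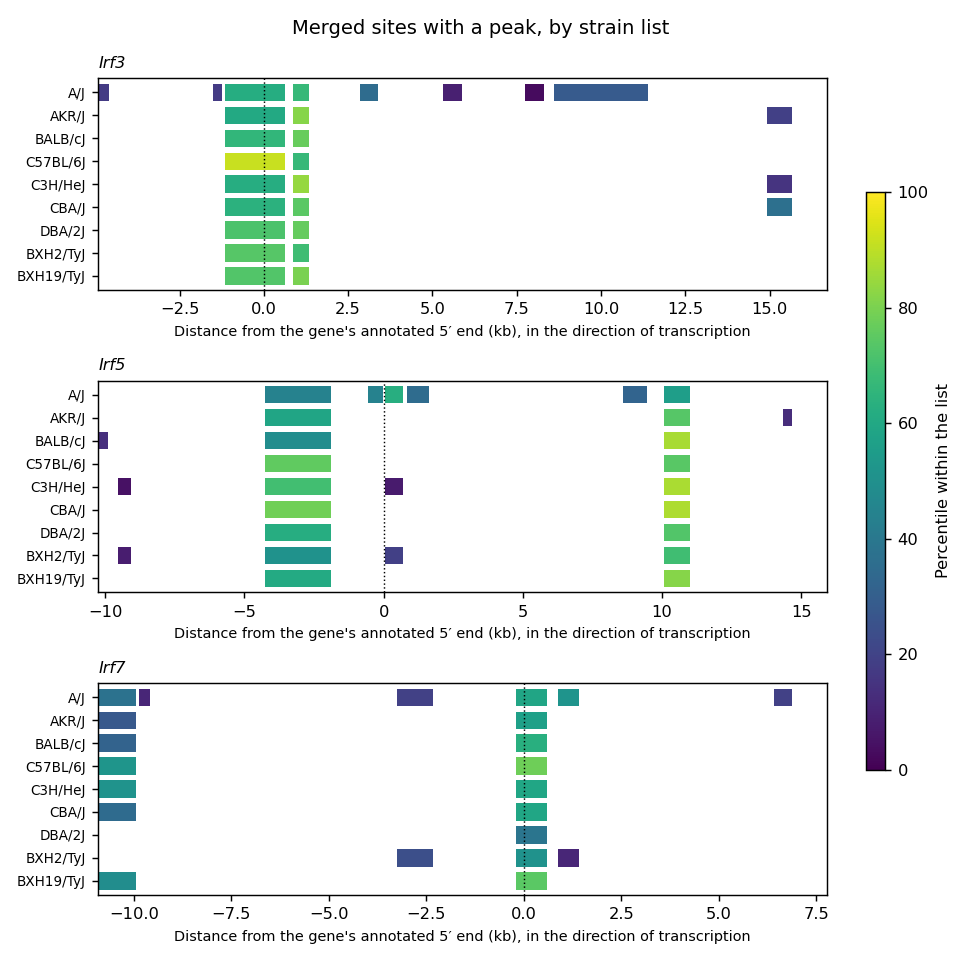
Merged sites around Irf3, Irf5 and Irf7 with a peak in each strain's list, drawn at their distance in kb from the annotated 5′ end (dotted line) and coloured by the percentile within the list. Each bar spans the whole merged site. The A/J row holds 6 bars at Irf3, 3 at Irf5 and 2 at Irf7 that no other row has.

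The Gbp proteins are GTPases that attack the vacuoles of intracellular parasites and bacteria. None of the 11 genes had a start site in all lists, against 41.7% of all genes. Their 9 sites were called in 3.89 lists on average (background 5.02). The A/J list held 1 of the 9 and CBA/J held 7, against 58.4% and 57.4% of all sites near genes. With so few sites, these shares are imprecise. The start site of Gbp7, whose upstream ISRE and GAS cores are shown above, lay at chr3:142193025-142193819 and was also a site of the authors' variable list. It ranked at 31 in A/J, 30.1 in C57BL/6J, 14.9 in BXH19/TyJ and 3.68 in AKR/J and had no peak in BALB/cJ, C3H/HeJ, CBA/J, DBA/2J and BXH2/TyJ. C57BL/6J and BXH19/TyJ thus had the peak and C3H/HeJ and BXH2/TyJ did not. The same site is the third one within reach of Gbp5. Gbp3 had a site 115 bases from an annotated start that was called in CBA/J alone, at 12.4, and that overlapped the common list.

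On chromosome 5, Gbp10, Gbp6 and Gbp11 lie next to each other. The Gbp10 site at chr5:105668558-105668935 ranked at 71.1 in C57BL/6J, 58.4 in AKR/J, 43.3 in DBA/2J, 34.0 in C3H/HeJ, 29.6 in CBA/J and 10.4 in BALB/cJ, and was not called in A/J, BXH2/TyJ or BXH19/TyJ. It was the only member site called in both C57BL/6J and C3H/HeJ and in neither recombinant strain. The Gbp6 start was called in 7 lists at 14.5 to 49.4, and the site upstream of Gbp11 in 8 lists at 2.98 to 66.0. A/J lacked a peak at all 3 sites. Gbp1, Gbp4, Gbp8 and Gbp9 had no site in any list.

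The immunity-related GTPases Irgm1 and Irgm2 guard the cell's own membranes while the parasite's vacuole is attacked. Irgm2 had one of the strongest starts among the members, at chr11:58028071-58028593, with 86.9 in A/J to 97.9 in BALB/cJ and a median of 93.5. Irgm1 was called at its start in all lists at 55.8 in AKR/J to 80.3 in C57BL/6J, and that site belonged to the common list. A second Irgm1 start site was missing in A/J alone and ranged from 6.00 to 49.5 elsewhere. Iigp1 had 2 sites within the gene, 1 called in AKR/J alone at 26.5 and 1 in BXH19/TyJ alone at 13.0, and none at its start. Ifi47, another GTPase of this kind despite its name, had a start site in 8 lists at 19.7 to 55.1, with A/J missing, and a second beside it in 5 lists including A/J at 45.9.

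Ifit proteins bind viral RNA. Ifit2 was called at its start in all lists, but at 5.29 in A/J and 32.5 to 43.4 in the others. Ifit1 was called at chr19:34715091-34715446, over the ISRE cores printed above, in CBA/J (30.3), DBA/2J (25.6), BXH19/TyJ (15.7) and BXH2/TyJ (7.31) and in none of the other 5 lists. Ifit3, with 2 ISRE cores in its printed window, had no start site. Only 70.3% of the 100-base sequences within 500 bases of the Ifit3 start occur once in the mm9 chromosomes, and the authors kept reads with a single location. The part of this in the missing call was not tested.

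Oas proteins make the short oligoadenylates that activate RNase L. Over all genes, 72.9% had a site. Of the 12 Oas genes, 9 had no site in any list: Oas1a, Oas1d, Oas1e, Oas1f, Oas1g, Oas1h, Oas2, Oas3 and Oasl2. The exception in the Oas1 cluster was the site shared by the starts of Oas1b and Oas1c, chr5:121262384-121263226, which was called in all 9 lists. Its percentile was 58.2 in A/J and 80.6 to 95.6 in the others, with a median of 86.5. Oas1b is the gene behind resistance to flaviviruses in mice. Unique sequence around the start was 82.0% for Oas1a and Oas1g. It was 99.2% to 100% for the other Oas genes without a site, Oas2 and Oas3 among them. The part of repeated sequence in the missing Oas calls was not tested. Oasl1 was called at its start in 7 lists at 15.2 to 48.7, without AKR/J and DBA/2J.

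Isg15, a ubiquitin-like modifier and among the best known interferon targets, had the most ISRE cores of the printed windows. Its start site at chr4:155574833-155575091 was called only in BXH19/TyJ, at 13.5. The stronger sites near it belonged to neighbours: one nearest Agrn was called in all lists at 55.0 to 85.6, and one at AW011738 in every list but C57BL/6J. Isg20, an exonuclease for RNA, had a start site in all lists at 40.4 to 73.8, and Isg20l2, a nucleolar relative, at 71.6 to 85.6. The Isg20l2 start was in the common list.

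Ifitm2 and Ifitm3, membrane proteins that block the entry of viruses, had start sites in all lists, with medians of 55.4 and 58.7 where the site covered the first base. Ifitm5, a bone gene, held the most sites of its family, 7, of which 2 were at its start, called in DBA/2J alone and in C57BL/6J and BXH2/TyJ. Ifitm1 and Ifitm7 had none. Ifih1, a sensor of viral double-stranded RNA, had its only site at its start, called in all lists at 47.7 to 71.4. Ifi35, an interferon-induced leucine-zipper protein, ranked at 16.5 in A/J and at 56.6 to 81.5 in the other lists. Ifi27l1 was called at its start in C57BL/6J (49.5), AKR/J (30.5), DBA/2J (23.6), BXH19/TyJ (19.5) and CBA/J (4.26).

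Ifi30, a lysosomal thiol reductase, had 9 sites, but 7 of these were nearest the starts of other genes. A site 412 bases from its start, nearest Pik3r2, was called in all lists. The merged site over the Ifi30 5′ end was called in A/J (27.2), BXH19/TyJ (11.8), BXH2/TyJ (6.98) and C3H/HeJ (6.77) only. The DNA-sensing Ifi202b, Ifi203, Ifi204 and Ifi205 and the gene Ifi44 had no site. Of the 20 members without a site, 14 had at least 90% of unique 100-base sequences around the start, against 37 of the 41 with a site. The share was 71.4% of members without a start site and 82.5% of all genes without one. The part of repeated sequence in these missing calls was not tested.

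The authors ranked the sites of the inbred strains by the evidence for a difference in read counts, and deposited the extreme positions as a variable and a common list of 2539 positions each. Member sites overlapped the variable list in 7 cases (4.55%, 1.85 to 9.14; background 4.8%) and the common list in 8 (5.19%, 2.27 to 9.98; background 4.96%), and both intervals held their background. The variable sites were the Gbp7 start, 2 start sites of Irf5, a site downstream of Irf3, 1 upstream of Irf2bp1 within 1 kb of its start, 1 downstream of Ifi35 and 1 upstream of Ifi30. All 7 were called in A/J, against 68.4% of variable sites near genes, and 2 were called in all lists (background 7.46%). Without the A/J list, 3.73% of the member sites overlapped the variable list, and the background share was not recomputed. The common sites were at the starts of Irgm1, Isg20l2 and Gbp3, upstream of Irf2, upstream of Irf5 at 2 places, upstream of Ifi30 and downstream of Oasl1, and 5 of the 8 were called in all lists (background 43.6%). The other 3, at Gbp3 and Irf5, had peaks in only 1 or 2 lists. The Ifi30 site, a stretch of 3160 bases nearest Pik3r2, overlapped positions of both lists.

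The recombinant strains offer a comparison with their parents. Where C57BL/6J and C3H/HeJ both had a peak, BXH2/TyJ had one at 71 of 74 member sites (background 90.8%) and BXH19/TyJ at 70 (background 94.4%). At the 17 sites of C3H/HeJ and not C57BL/6J, BXH2/TyJ was called at 12 (70.6%, 44.0 to 89.7; background 45.7%) and BXH19/TyJ at 7 (41.2%, 18.4 to 67.1; background 47.9%). At the 12 sites of C57BL/6J and not C3H/HeJ, BXH2/TyJ was called at 5 (41.7%, 15.2 to 72.3; background 32.2%) and BXH19/TyJ at 8 (66.7%, 34.9 to 90.1; background 34.3%). Only the last interval lay above its background, with a lower end of 34.9 against 34.3%. Several intervals were read here, and some of the 12 sites are close neighbours, such as those downstream of Irgm1. No conclusion is drawn from it. The genotype of the recombinant strains at these sites was not used here.

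The highest median at a start site called in all lists was that of Irf2bp2, 93.6, next to 93.5 for Irgm2. The Irf2bp2 site lay 420 bases from the start, at 90.2 to 95.9, and the site over the start itself was called in A/J alone at 33.7. Irf2bp1 had 13 sites, and its variable site at chr7:19587837-19588941 ran from 6.01 in C3H/HeJ and 25.5 in CBA/J to 77.0 in BXH2/TyJ and 89.1 in C57BL/6J. This was the widest range of percentiles among the named start sites called in all 9 lists. The site directly over the Irf2bp1 start ranged from 47.7 to 72.3.

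Among the other genes of the pathway, 43 of 44 listed were found. Of these 43, 26 had a start site in all lists, against 41.7% of all genes, and no interval was computed for these lists. By list, the counts follow. These were 3 of 5 receptors, 4 of 6 kinases and STATs, 5 of 8 sensors and adaptors, 11 of 21 other induced genes and 4 of 4 suppressors, 1 gene being in both of the last lists. Ifnar1, Ifnar2 and Ifngr1, Jak1, Stat2 and Stat3 and the suppressors Socs1, Socs3, Ptpn6 and Usp18 were open in every list. Tyk2, Tmem173, Tgtp1 and Tgtp2 had no start site. Among the induced genes, Mx2, Eif2ak2, Igtp and Bst2 were open in all lists, while Rsad2 was called in 2 lists, Mx1 in 3 and Ddx60 in A/J alone. The receptor gene Ifngr2 was called in 5 lists.

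The tissue label was checked with marker genes. All 8 hepatocyte markers had a start site in some list, against 60.1% of all genes. In all 9 lists there were 2, Apoa1 and Hnf4a, against 41.7% of all genes, while Alb was called in 2 lists. Starts of Kupffer cell and macrophage markers were called for 0 of 6 genes and those of T, B and NK cells for 0 of 7, and 4 of those 6 macrophage genes had no site at all. Starts were called in at least 1 list for 3 of 5 endothelial, 3 of 4 stellate and 2 of 4 cholangiocyte markers, with Sox9 in all 9. A/J held 2 endothelial and 2 stellate starts, and each other list 0 or 1 of either. Hepatocyte markers went the other way, with 2 of 8 starts in A/J, the fewest, and 4 to 7 in the other lists. Over all genes A/J also had the most starts called, 57.1%, against 45.9% to 52.7% in the other lists. Whole liver cannot show in which cells a member's chromatin was open.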

How the data were processed

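FAIRE-seq of livers from 9 strains was analysed. Per the study's methods, the authors mapped reads with bowtie1 to mm9 carrying the SNPs of each inbred strain (for the recombinant strains, to mm9 and to its C3H/HeJ version, and which of these gave the lists is not stated), retained uniquely mapped, properly paired, non-duplicate reads, ran F-seq with a feature length of 400 bp and used the IDR framework on the 2 mice of a strain. Tool versions were not given in the sources used. Of the deposited columns, the one used is the authors' F-seq signal, a score whose scale may differ between lists, and the authors' variable and common lists, made from quantile-normalized counts with DESeq, hold positions only and were deposited without values. Each score was turned into a percentile within its list. The 9 lists were merged, and an overlap of 1 bp with a peak was enough for a call. Genes came from GENCODE M1 and sequence from NCBIM37, the assembly that is mm9; start sites lay within 1 kb of an annotated start.

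The members, gene lists and rules were chosen with earlier results of these data known. The text names members with a variable or common site, the Irf genes, the 10 members with the largest SD of percentile at a start site called in some but not all lists, the 5 with the highest median at a start site called in all lists, and in each family the member with the most sites and those with none. A few genes that fall under it are not reported here. Members outside this rule were named after their values were seen. Strains were the groups, and 0 columns of per-sample values were left unmapped. Read depth is unknown from the lists. The read counts per sample that the study reports entered no calculation and are cited only beside the A/J calls. Precision is therefore given by counting intervals.

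Alternatives were flanks of 0, 5 and 20 kb, the 20000 strongest peaks of each list, inbred lists only, each list left out, a stricter overlap, lists without a peak at 0 and other motif windows; 2 were added after the data were seen. Merging was tested on simulated data and gave the union counted base by base in each of 50 runs. Tools were numba 0.67.0, matplotlib 3.10.9, scipy 1.17.1, pandas 2.3.3 and numpy 2.4.6 under Python 3.11.15.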

Additional observations from a re-analysis of the deposited data

Results flagged for a closer look

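At the 50 member sites called in all 9 lists, the percentile of 1 list was compared with the rest, and 9 sites (18.0%) had a list whose gap to its nearest neighbour was above Dixon's 95% critical value as a share of the whole range. Chance flags about 1 in 20, and the 9 strains are not replicates of 1 group, so the flags are a description. Over the 12208 sites near genes called in all lists, the share was 16.8%. A/J was the list apart in 5 of the 9, and in 61.5% of the sites so marked over all genes. Its percentiles were 16.5 at the Ifi35 start (others 56.6 to 81.5), 5.29 at the Ifit2 start (others 32.5 to 43.4), 58.2 at the start shared by Oas1b and Oas1c (others 80.6 to 95.6), 20.4 at an exonic Oasl1 site (others 51.5 to 82.8) and 9.43 at a site downstream of Irf2bp2 (others 54.4 to 79.7). A/J was the lowest list in each of these. C57BL/6J was the highest list at the Irf3 start, at 91.6 against 60.4 to 73.8. DBA/2J was the lowest at a site downstream of Ifi30 that is nearest Mpv17l2, at 15.8 against 69.2 to 92.7. AKR/J was the lowest at an upstream Irf1 site, at 28.4 against 41.8 to 52.7. C3H/HeJ was the lowest at a site upstream of Ifi27l1 that is nearest Ddx24, at 96.4 against 98.0 to 99.5, a difference of ranks near the top of the list.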

How the results depend on the processing

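Of 97 recomputed values, 92 stayed within the interval, spread or 1.5-fold limit of the reported value and 5 moved. With the gene body alone, the member sites numbered 78 instead of 154. The share called in all lists was 16.2% when a peak had to cover at least 50% of the site. Leaving out 1 list at a time gave 32.1% to 42.5%, and the highest value was the one without A/J. Shares of all sites near genes were not recomputed under these settings, so the backgrounds given earlier do not apply to them. The median percentile was 54.1 with the 20000 strongest peaks of each list, where weak peaks are absent by construction, and 18.6 with lists that had no peak set to 0. Member genes with a site (34 to 46) and the shares in the variable (1.92% to 5.21%) and common lists (3.23% to 5.97%) did not move beyond their limits. The share of windows with an ISRE core was 32.8% to 42.6%, and that of all genes 3.31% to 7.46%, over the motif windows, a motif shorter by its last base and, added after the data were seen, any annotated start. Sites nearest a member's own start, also added later, numbered 111, with 33.3% called in all lists. No paired analysis was possible because the deposited lists combine the 2 mice of each strain, and for the same reason no replicate could be left out. Read depth is not given in the lists.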
